A study of Mus musculus with 304 samples.

Results

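The genes of the apoptosome and of the Bcl2 family form the core of the mitochondrial, or intrinsic, route to apoptosis. All rows of the count table with the symbols Apaf1, Casp9, Bcl2, Bcl2l1, Mcl1, Bax, Bak1, Bid and Bcl2l11 were taken, and 9 of 9 were found among 22800 genes. They were followed in single granule cells patched in the mouse dentate gyrus, whose axons are the mossy fibres, in a study of mossy fibre rewiring that names the transcriptional regulator Id2 in its title. Each library is the cytosol of 1 cell drawn into a patch pipette (Patch-seq).

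In this route, BH3-only proteins such as Bid and Bim (the product of Bcl2l11) sense stress and act on the effectors Bax and Bak, which open the outer mitochondrial membrane. The guardians Bcl-2, Bcl-xL (from Bcl2l1) and Mcl-1 hold the effectors and BH3-only proteins in check. Once cytochrome c leaks out it binds Apaf-1, which assembles into the apoptosome and activates caspase-9. Developing neurons depend on this route for their culling, while mature neurons are known for low Apaf-1 and for resistance to apoptosis.

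In all, 248 libraries labelled as passing quality control were used, in 5 groups. Control cells (DG, 31 cells) came from mice without an injection. Kainic acid, a glutamate receptor agonist that provokes seizures, had been microinjected into the hippocampus as 70 nl at 5 mM. Cells were taken 1 day later from the side labelled ipsi (KA1_DG_ipsi, 58 cells) or 14 days later with no side given (Kainate_DG, 29 cells). In the other groups an adeno-associated virus had been given 1 month earlier, to overexpress GFP as the control (GFP_Control, 59 cells) or Id2 (Id2_OE, 71 cells). The title calls the mossy fibre system adult, but strain, age, sex, the viral promoter and the serotype are not given in the labels. No label names an animal. Each group therefore counts as 1 sample, no difference between groups was tested, and every comparison is a description of these libraries.

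Levels are CPM: the counts of a gene, summed over the cells of a group, scaled to 1000000 counts in all genes. Control libraries held 32487 to 7923833 reads and those of the other groups 312004 to 27708910, with medians of 1738610 in control cells and 3317227 to 7615492 elsewhere. Intervals at 95% are exact Poisson for CPM and exact Clopper-Pearson for shares of cells, and both cover counting error only. Because a deeper library finds rare RNA more often, shares are also given with every cell thinned to 100000 reads. Id2 itself stood at 37369 CPM in the Id2 cells and 93.2 CPM in the GFP cells. The granule cell markers, 12 genes that include Prox1 and Calb1, summed to 3526 CPM in control cells, 1634 at day 1, 1673 at day 14, 3794 in GFP cells and 2619 in Id2 cells, and 1 of them, Lct, was at 0 in control cells. The 7 interneuron markers summed to 674 CPM in control cells, 689 at day 1, 1184 at day 14, 582 in GFP cells and 357 in Id2 cells. Vip and Lhx6 were at 0 in control cells, Sst, Vip and Lhx6 at day 1, and Gad2 in Id2 cells. At day 14 Sst, Pvalb, Vip and Lhx6 were at 0, so that sum came from Gad1, Gad2 and Slc32a1 only. Both kainate groups were thus lower in summed granule cell markers, and day 14 was higher in the interneuron sum. The part of either in the differences of the members was not tested. The 14 microglia markers summed to 3715 CPM in control cells, 808 at day 1, 6660 at day 14, 174 in GFP cells and 606 in Id2 cells. P2ry12 was the only one of the 14 at 0, at day 1. Cells with at least 1000 CPM of these microglia markers, called microglia-rich below, numbered 17 of 31 control cells, 8 of 58 at day 1, 20 of 29 at day 14, 2 of 59 GFP cells and 11 of 71 Id2 cells. Titles of kainate cells begin with K, those of virus cells with IDS and those of most control cells with J. No control title begins with K or IDS. The K titles of day 14 are all numbered lower than those of day 1. Condition and batch, if there was one, thus cannot be told apart between kainate, control and virus cells, or between the days.

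The sequence upstream of a start site is shown for Apaf1, the member with the widest range of log2(CPM + 1) over the groups, and for Mcl1, the member with the highest level in control cells. Id proteins act by pairing with basic helix-loop-helix factors, whose partners bind the E-box, so the windows were searched for E-boxes (CANNTG, marked in capitals; the motif reads the same on both strands). Sequences are from RefSeq, build GRCm38.p6, 5′ to 3′ on the gene's strand, and bases inside annotated exons were left out.
Apaf1, minus strand, chr10:91082771-91082939: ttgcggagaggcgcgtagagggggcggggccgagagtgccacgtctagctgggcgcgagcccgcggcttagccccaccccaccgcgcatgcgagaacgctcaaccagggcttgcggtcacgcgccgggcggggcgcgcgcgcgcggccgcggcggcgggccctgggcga
Mcl1, plus strand, chr3:95658471-95658720: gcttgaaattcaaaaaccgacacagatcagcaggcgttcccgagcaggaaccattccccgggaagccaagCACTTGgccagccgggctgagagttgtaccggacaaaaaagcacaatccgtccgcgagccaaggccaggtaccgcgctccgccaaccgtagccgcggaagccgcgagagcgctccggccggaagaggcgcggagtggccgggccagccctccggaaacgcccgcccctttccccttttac

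The 250 bases before the RefSeq start of Apaf1 held no E-box and were 75.6% G and C. Those of Mcl1 held 1, which begins 180 bases before the start. Of the 12 windows of the 9 members 6 held an E-box (those of Bax, Bcl2l1, Casp9 and Mcl1), and 66.2% of all 32851 promoter windows in the RefSeq table did. No member window held the cyclic AMP response element TGACGTCA (1.55% of all windows) or the AP-1 motif TGANTCA (6.75% of all windows). These are matches of letters only. The run shown for Apaf1 is the whole gap between its first exon and that of Ikbip, which is transcribed the other way. Reads of Ikbip were found in 1 to 8 cells of a group and its level lay between 0.636 and 9.12 CPM, too few for its profile to be set beside that of Apaf1.

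Apaf1 (ENSMUSG00000019979.12, chromosome 10, 90989311 to 91082770, minus strand, 28 exon blocks), the scaffold of the apoptosome, had the widest range of the members over the groups on the log2(CPM + 1) scale, 5.36 against 5.21 for Bcl2, the next. Without the added 1 CPM, Bcl2 and Casp9, which are near or at 0 in control cells, span wider folds. So does Bak1, which is below 1 CPM in every group. Apaf1 stood at 86.5 CPM (84.3 to 88.7) in control cells and at 4.70 CPM (4.51 to 4.90) 1 day after kainate. Single control cells ranged from 0 to 546 CPM with a median of 0, and day 1 cells from 0 to 116.8 CPM with a median of 0. The day 1 range lies wholly within that of the controls, and 11 of 31 control cells and 4 of 58 day 1 cells reached 10 CPM. A read of Apaf1 was found in 41.9% of control cells (24.5% to 60.9%) and 15.5% of day 1 cells (7.35% to 27.4%). After thinning, the shares were 37.9% (20.7% to 57.7%) and 6.90% (1.91% to 16.7%), with intervals that do not overlap. Such intervals take cells as independent and do not cover differences between animals, so they are no test between groups. Both the share of cells with the RNA and its summed amount were therefore lower at day 1. Over all reads, the cells with a read had a median of 9.64 CPM at day 1 against 158 CPM in controls. Day 1 libraries were deeper, so cells with few reads count there and can lower that median. Of 9 day 1 cells with a read 4 kept one after thinning, against 11 of 13 in controls.

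The difference of Apaf1 at day 1 was 18.4-fold, or -3.94 as a log2 ratio of (CPM + 1), and only 39 of 9079 measured genes lay lower. It was at least 2-fold lower under each of 14 other ways of treating the data, between -5.36 and -2.70. Apaf1 was at 96.3 CPM in the 22 control cells with J titles and 65.3 CPM in the 9 others. Among cells that were not microglia-rich it stood at 110.9 CPM in 14 control cells and 5.30 CPM in 50 day 1 cells, a log2 ratio of -4.15. The part of microglial RNA in the difference was not tested. The day 1 cells were also the deeper ones, with a median of 6834546 reads.

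At day 14 Apaf1 stood at 38.7 CPM (37.99 to 39.51), but these reads came from 5 of 29 cells. Single cells ranged from 0 to 1315 CPM with a median of 0, and 1 cell, titled K2, held 70.7% of the reads. Without the cell with the most reads in each group, Apaf1 was at 11.6 CPM at day 14 and 70.8 CPM in controls. All of the Apaf1 reads of day 14 lay in microglia-rich cells, 5 of 20, and none in the 9 other cells, which leaves a share of up to 33.6% by the exact interval. At day 1 none of 8 microglia-rich cells (up to 36.9%) and 9 of 50 other cells (18%, 8.58% to 31.4%) had a read, with overlapping intervals. The part of microglial RNA in the day 14 level was not tested. Apaf1 at day 14 was 2.23-fold lower than in control cells, and this passed a 2-fold difference under 9 of 14 alternatives, with a log2 ratio between -6.81 and -0.29.

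In the virus groups the summed level of Apaf1 was 233 CPM (231 to 235) for GFP and 105.6 CPM (104.3 to 106.8) for Id2. Single GFP cells ranged from 0 to 1266 CPM with a median of 115.7, and Id2 cells from 0 to 1353 CPM with a median of 0. Apaf1 was detected in 72.9% of the GFP libraries (59.7% to 83.6%) but 45.1% of the Id2 libraries (33.2% to 57.3%), and thinning left 64.4% (50.9% to 76.5%) and 30.99% (20.5% to 43.1%). GFP cells were thus more often positive, while the highest Id2 cells reached the levels of the highest GFP cells. Apaf1 was 2.21-fold lower with Id2, a log2 ratio of -1.14 at which 772 of 7846 measured genes lay lower.

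The 2 sets of titles that the virus groups share gave the same direction for Apaf1. In IDS titles numbered up to 95 (43 cells in each group) it stood at 73.3 CPM with Id2 and 216 CPM with GFP, and 44.2% against 72.1% of cells had a read. In the higher-numbered IDS titles (28 and 16 cells) it stood at 173.1 and 300.3 CPM, with a read in 46.4% and 75% of cells. The log2 ratio was -1.54 in the first set and -0.79, short of a 2-fold difference, in the second. Without the deepest 10% of cells it was -0.97, and with cells that failed quality control added it was -0.93. Over all 13 alternatives the ratio stayed below 0, and it passed 2-fold in 10.

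The order of Apaf1 over the groups was GFP, Id2, control, day 14 and day 1. That order is of the summed CPM, whose counting intervals do not overlap. By thinned share of cells the order was GFP, control, Id2, day 14 and day 1. The intervals of neighbours overlapped all along this order by share, so neighbours in it are not set apart. Those of GFP cells (50.9% to 76.5%) and Id2 cells (20.5% to 43.1%), which are not neighbours in it, did not overlap. They do not cover differences between animals, so this is no test either. GFP cells, which had been injected with a virus, were 2.69-fold above cells of mice without an injection. Every alternative of that comparison put Apaf1 at least 2-fold higher with GFP, with log2 ratios from 1.08 to 2.51, so the choice of control sets the size of a difference: against GFP cells, Apaf1 at day 14 would be -2.56 on the log2 scale instead of -1.14.

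**Figure D1:**
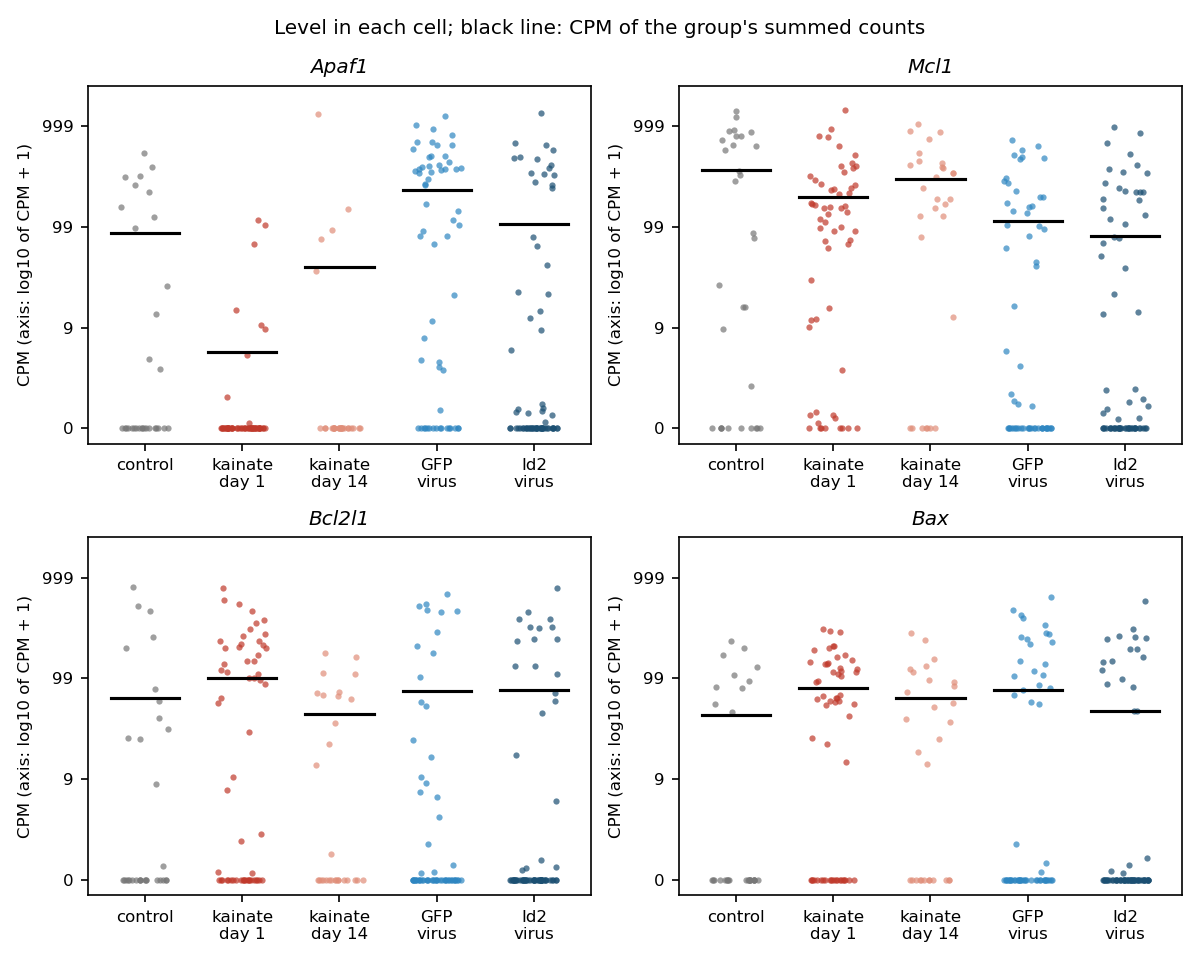
Level of Apaf1, Mcl1, Bcl2l1 and Bax in each cell (points; vertical axis log10 of CPM + 1, ticks in CPM) by group, with the CPM of summed counts as a black line. For Apaf1 most day 1 cells lie at 0 and the summed level is 4.70 CPM, while most GFP cells lie above 0 and the summed level is 233 CPM.

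**Figure D2:**
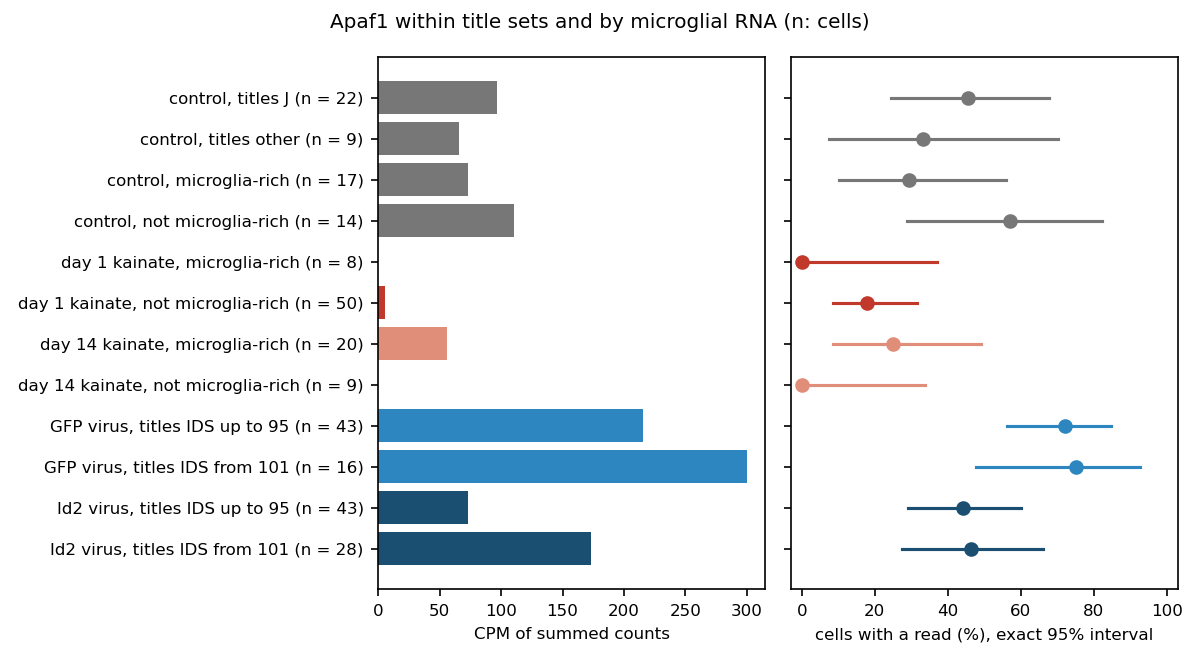
Apaf1 in parts of each group: CPM of summed counts (left, bars from 0) and percent of cells with a read with the exact 95% interval (right). At day 14 all reads lie in the microglia-rich cells, and in both title sets the Id2 cells lie below the GFP cells.

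Profiles over the 5 groups were compared with that of Apaf1 by the distance between log2(CPM + 1) values, each centred on its own mean, among 9696 genes. The nearest were Gpr37 (distance 0.834), Pla2g3 (1.03), Abcd4 (1.22), Faim2 (1.23) and Me3 (1.24). Gpr37, an orphan G protein-coupled receptor, stood at 58.2 CPM in control cells, 5.06 at day 1, 44.8 at day 14, 175 in GFP cells and 62.1 in Id2 cells. Faim2, an inhibitor of Fas-driven death in neurons, stood at 310 CPM in control cells, 25.4 at day 1, 71.5 at day 14, 498 in GFP cells and 474 in Id2 cells. Likeness over 5 points that share their libraries is a description.

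Casp9 (chromosome 4, 141793612 to 141815976, plus strand), the caspase that the apoptosome activates, was rarely found. It had 1 read in 31 control cells, 2.77 CPM in 4 cells of day 1, 6.69 CPM in 3 cells of day 14, 12.4 CPM in 3 GFP cells and 14.7 CPM in 5 Id2 cells. In each of the 4 other groups 1 cell held 61.8% to 88.3% of the reads, and the 3 day 14 cells were all microglia-rich. Casp9 counted as measured in no comparison; that asks that 20% or more of cells in either group have a read and that either group reach 5 CPM. Both apoptosome genes had a read in 0 of 29 thinned control cells, 1 of 58 at day 1, 1 of 29 at day 14, 2 of 59 GFP cells and 1 of 71 Id2 cells.

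Mcl1 (ENSMUSG00000038612.16, chromosome 3, 95658788 to 95663176, plus strand), a short-lived guardian, had the highest CPM of the members in control cells and both kainate groups. It stood at 370.5 CPM in control cells, 196 at day 1, 298 at day 14, 113.2 in GFP cells and 81.3 in Id2 cells. Single cells ranged from 0 to 1431 CPM in controls (median 77.5), 0 to 1457 at day 1 (median 126.3), 0 to 1052 at day 14 (median 190), 0 to 735 with GFP (median 0.869) and 0 to 991 with Id2 (median 0.263). At day 1 the summed level was thus lower than in controls while the median cell was higher. A read was in 67.7% of control and 86.2% of day 1 cells, and in 68.97% (49.2% to 84.7%) and 75.9% (62.8% to 86.1%) after thinning. Over all reads, without thinning, the cells with a read had medians of 579 CPM in controls and 156 CPM at day 1. The lower sum at day 1 thus went with less Mcl1 per positive cell and not with fewer positive cells.

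The log2 ratio of Mcl1 was -0.92 at day 1, short of 2-fold, and -0.31 at day 14. Against GFP cells the same kainate groups gave 0.78 and 1.39, so the direction for Mcl1 depends on which cells serve as the control. Microglia-rich cells had more Mcl1 than the rest in all 3 groups of that set: 398 against 321 CPM in controls, 361 against 174 at day 1 and 354 against 169 at day 14. The part of microglial RNA in these levels was not tested. Without microglia-rich cells Mcl1 was at 321 CPM in controls, 174 at day 1 and 169 at day 14. GFP cells were 3.27-fold below control cells, between -1.82 and -1.48 on the log2 scale under 13 alternatives. With Id2 the ratio to GFP was -0.47 over all cells and 0.13 in the higher-numbered titles, and none of 13 alternatives reached 2-fold.

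Bcl2l1 (chromosome 2, 152780668 to 152831728, minus strand), which encodes Bcl-xL, spanned 1.16 on the log2 scale over the groups. It stood at 63.0 CPM in control cells, 99.3 at day 1, 43.9 at day 14, 73.6 in GFP cells and 75.6 in Id2 cells. Single cells reached 807 CPM in controls, 791 at day 1, 179 at day 14, 696 in the GFP group and 797 in the Id2 group, with a median of 42.1 at day 1 and of 0 in the other groups. After thinning, 53.4% of day 1 cells had a read (39.9% to 66.7%), against 37.9% in both control and day 14 cells, 28.8% with GFP and 23.9% with Id2. Day 1 cells were 2.26-fold above day 14 cells, and all 11 alternatives kept that difference above 2-fold, from 1.09 to 2.00. In control cells a single microglia-rich library, J49, held 53.5% of the reads. Without the cell with the most reads in each group, controls stood at 31.3 CPM and day 1 at 94.7 CPM, and the log2 ratio went from 0.65 to 1.57. Day 14 cells were at -0.51 against control cells, past 2-fold in 4 of 14 alternatives (-1.50 with the deposited scaled signal) and at 0.17 without the cell with the most reads in each group. Id2 and GFP cells were level over all titles, with a ratio of 0.04, but the title sets went apart: 103.1 against 76.02 CPM in the lower-numbered titles and 18.1 against 64.2 CPM, past 2-fold, in the higher-numbered ones.

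Bcl2 (chromosome 1, 106538178 to 106714274, minus strand), the founding guardian, had 0 reads in the 31 control cells. A floor of 3 counts over the group, used for groups at 0, is 0.0447 CPM, the exact Poisson interval reaches 0.0549 CPM, and the cells allow a share of up to 11.2% of cells by the exact interval. At day 1 it stood at 35.9 CPM from 11 cells (18.97%, 9.87% to 31.4%), whose median was 106.6 CPM, and the share was the same after thinning. One of these 11 cells, K70, held 37.9% of the reads, and 22.7 CPM remained without it. The day 1 level was at least 804-fold higher than the control floor, though the gene missed the 20% share set for a measured gene. At day 14 Bcl2 was at 1.53 CPM from 6 cells, of which 2 kept a read after thinning. With GFP it was at 5.77 CPM, 98.8% of it in 1 cell, and with Id2 at 11.3 CPM in 7 cells.

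Between the days Bcl2 differed 23.5-fold, with a log2 ratio of 3.87 above which 43 of 9823 measured genes lay. It counts as measured there because the share came from day 14 (20.7% of cells) and the level from day 1. The sign held in 11 of 11 alternatives, and in 3 of them (thinned cells, without the deepest 10% of cells, without the cell with the most reads) the gene fell below the filter. Day 1 Bcl2 reads lay almost wholly outside the microglia-rich cells: 40.4 CPM in the 50 others and 0.569 CPM in those 8. Reads of Bcl2 in the 558 exon bases shared with D630008O14Rik on the other strand cannot be told apart, since no strand setting is stated for the counting.

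Bax (chromosome 7, 45461697 to 45466898, minus strand), the effector that forms pores in the mitochondrial membrane, had the narrowest range of the members, 0.90 on the log2 scale. It stood at 42.1 CPM in control cells, 79.6 at day 1, 62.6 at day 14, 75.6 in GFP cells and 46.6 in Id2 cells. Single cells ranged from 0 to 233 CPM in controls (median 0), 0 to 311 at day 1 (median 58.5), 0 to 284 at day 14 (median 24.3), 0 to 650 in the GFP group (median 0) and 0 to 585 in the Id2 group (median 0). The kainate groups had more positive cells: 62.1% at day 1 (48.4% to 74.5%) and 58.6% at day 14 (38.9% to 76.5%) after thinning, against 34.5% of control cells (17.9% to 54.3%), with intervals that overlap. The positive cells had medians of 99.95 CPM in controls, 115.2 at day 1 and 83.3 at day 14. No comparison of Bax reached 2-fold over all cells. The closest was day 1 against control, with 1.89-fold and a log2 ratio of 0.90, or 0.07 against GFP cells. Without microglia-rich cells the ratio to control was 0.48 at day 1 and 0.10 at day 14. Microglia-rich cells and the others stood at 38.4 and 48.7 CPM in controls, 169.6 and 68.1 at day 1, and 67.1 and 52.1 at day 14. Among the others, 42.9% of control, 60% of day 1 and 66.7% of day 14 cells had a read. The part of microglial RNA in these levels was not tested. With Id2 the ratio to GFP was -0.69, and it stayed below 0 in 13 of 13 alternatives. Exons of Bax share 192 bases with the predicted gene Gm45808 on the same strand.

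Bak1 (chromosome 17, 27019810 to 27029009, minus strand), the other effector, was near absent. Its highest level was 0.983 CPM, in control cells, and all 66 of those reads came from 1 microglia-rich cell. The other groups had 3 to 130 reads, 0.0135 CPM with GFP to 0.489 CPM with Id2, and after thinning 0 to 4 cells of a group had a read. The 2 effectors were thus carried at very unequal levels. Per kilobase of exon, Bax stood at 26.7 CPM per kb in control cells and Bak1 at 0.408, and in the other groups Bax lay between 29.6 and 50.5 and Bak1 between 0.00562 and 0.203 CPM per kb. Bak1 exons share 614 bases with Ggnbp1 on the other strand.

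**Figure D3:**
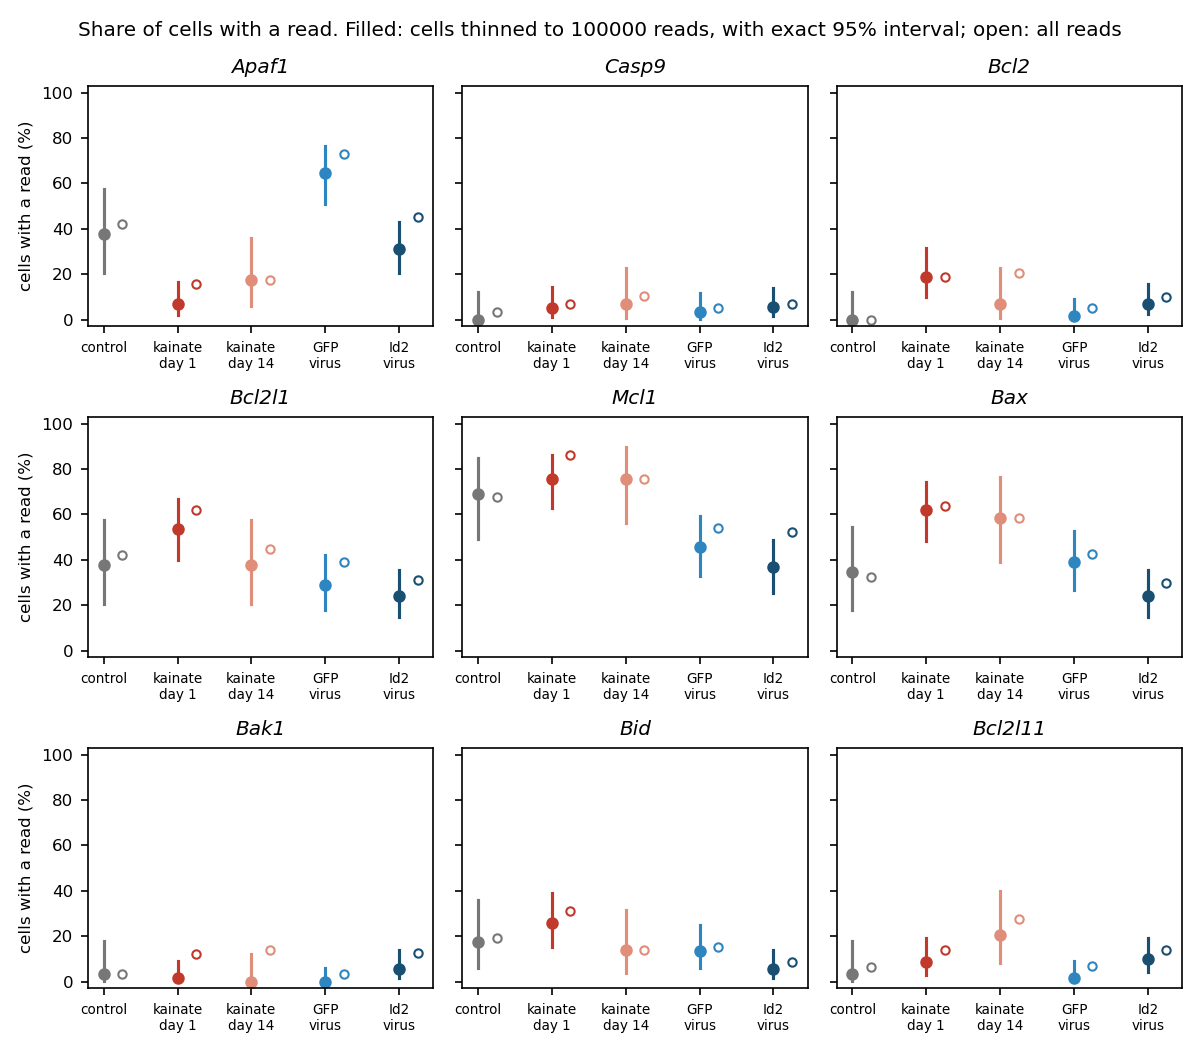
Percent of cells with a read of each member by group, after thinning each cell to 100000 reads (filled, with the exact 95% interval) and with all reads (open). Apaf1 is lowest at day 1 (6.90%) and highest with GFP (64.4%), and Casp9, Bcl2 and Bak1 stay below 20% after thinning in every group.

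Bid (chromosome 6, 120891930 to 120916853, minus strand), a BH3-only protein that caspase-8 cleaves and that links death receptors to mitochondria, stood at 19.1 CPM in control cells, 16.98 at day 1, 10.7 at day 14, 22.8 in GFP cells and 9.91 in Id2 cells. Few cells held it: 6 of 31, 18 of 58, 4 of 29, 9 of 59 and 6 of 71. Its ratio at day 1 was -0.16, but it was 1.63 against the 9 control cells of other titles, 0.18 without the cell with the most reads in each group, and -1.25 without microglia-rich cells. Exons of Bid overlap those of Bcl2l13 on the other strand by 628 bases, 17.7% of its exon bases, so reads of the pair cannot be told apart there.

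Bcl2l11 (chromosome 2, 128126038 to 128162547, plus strand), which encodes Bim, stood at 2.56 CPM in control cells, 34.3 at day 1, 23.02 at day 14, 7.38 in GFP cells and 18.4 in Id2 cells. Single cells reached 66.7 CPM in controls, 686 at day 1, 542 at day 14, 390 in the GFP group and 836 in the Id2 group, and the median cell was at 0 in each group. Reads came from 2 control cells, 8 day 1 cells, 8 day 14 cells, 4 GFP cells and 10 Id2 cells. Day 14 cells were 8.99-fold above control cells, and all 14 alternatives kept the ratio above 2-fold, between 1.52 and 4.59. The evidence in single cells is thinner: 27.6% of day 14 cells (12.7% to 47.2%) and 6.45% of control cells (0.791% to 21.4%) had a read, with overlapping intervals. At day 14 the cell K46 held 67.2% of the reads, and in controls the cell J32 held 98.3%; without these, 7.78 CPM and 0.0464 CPM remained. Microglia-rich cells were at 28.5 CPM and the other 9 cells at 10.3 CPM at day 14. At day 1, where the gene missed the 20% share, all 8 cells with Bcl2l11 were among the 50 that were not microglia-rich.

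Across comparisons few members passed a 2-fold difference, counted as a log2 ratio of (CPM + 1) of at least 1 in size among measured genes. At day 1 against control 5 of the 9 were measured. None was higher, where 23.2% of all measured genes were, and 1, Apaf1, was lower, where 15.2% were. The median of the 5 was -0.16 and that of all measured genes 0.17. At day 14 against control 5 were measured, with Bcl2l11 higher (23.8% of all genes) and Apaf1 lower (15.8%), and medians of -0.31 for the members and 0.14 for all genes. Members passed only where a group was high enough, so the measured ones do not stand for all 9.

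For day 1 against day 14, 6 were measured, Bcl2 and Bcl2l1 were higher (16.6% of all genes), none was lower (17.4%), and the medians were 0.59 and 0.02. For Id2 against GFP, 4 were measured, none was higher (10.2%), Apaf1 was lower (12.6%), and the medians were -0.58 and -0.10. For GFP against control, 4 were measured, Apaf1 was higher (19.3%), Mcl1 was lower (13%), and the medians were 0.53 and 0.13. Comparisons that share the control cells or the day 1 or GFP cells are not independent of each other. The counts of members lie near the background shares. Among measured members the largest differences in size were Apaf1 at day 1 against control and Bcl2 between the days. Apaf1 was measured there only through the control cells, and Bcl2 through the share at day 14 and the level at day 1. The size of either is therefore a description and no support for the members as a set.

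**Figure D4:**
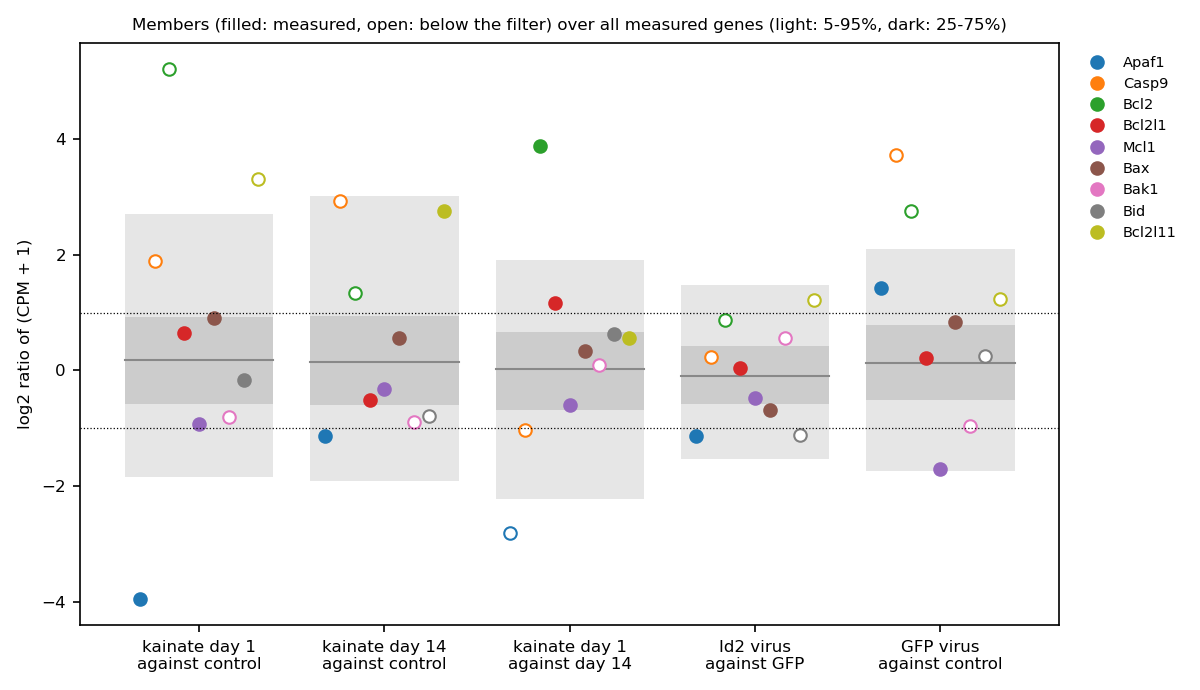
Log2 ratio of (CPM + 1) of each member in the 5 comparisons (points; filled where measured, open below the filter), over the middle 90% (light) and 50% (dark) of all measured genes, with the 2-fold lines dotted. Among measured members, Apaf1 at day 1 against control (-3.94) and Bcl2 at day 1 against day 14 (3.87) lie outside the light range. Some open points do too, such as Bcl2 at day 1 against control (5.21).

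Set on a scale per kilobase of exon, the balance between roles differed between groups. Guardians made up 74.2% of the summed CPM per kb of the 9 members in control cells, 57.7% at day 1, 65.4% at day 14, 37.4% in GFP cells and 45.7% in Id2 cells. Effectors, which is to say Bax, made up 16.5%, 35.3%, 26.8%, 35.99% and 32.8% in the same order. The apoptosome pair made up 5.82% in control cells, 0.734% at day 1, 3.77% at day 14, 21.2% in GFP cells and 15.98% in Id2 cells. BH3-only genes stayed between 3.47% and 6.31%. Mcl1 alone was at 108.4 CPM per kb in controls against 57.2 at day 1 and 33.1 with GFP, and it set most of the guardian share.

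**Figure D5:**
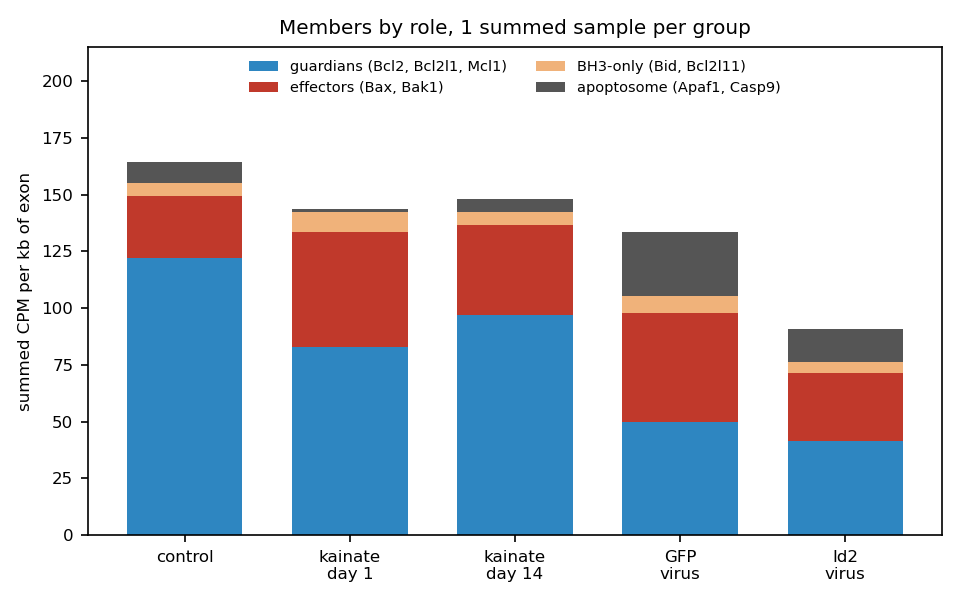
Summed CPM per kilobase of exon of the 9 members by role (stacked bars from 0), 1 summed sample per group. Guardians make up 74.2% in control cells and 37.4% with GFP, and the apoptosome pair 0.734% at day 1 and 21.2% with GFP.

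Within single cells the members were found sparsely. After thinning, the median cell had a read of 2 of the 9 members in control, day 14 and GFP cells, 2.5 at day 1 and 1 with Id2. No member was found in 3 of 29 control cells, 1 of 58 day 1 cells, 4 of 29 day 14 cells, 7 of 59 GFP cells and 18 of 71 Id2 cells. The median number of all genes found per thinned cell was also lowest with Id2, at 2722 against 3126 with GFP and 3624 to 4298 in the other 3 groups, and its part in these counts was not tested. Bax and Mcl1 were found together in 26 of 58 day 1 cells and 15 of 29 day 14 cells, against 7 of 29 control cells, 15 of 59 GFP cells and 9 of 71 Id2 cells. Counted singly, Bax was found in 36, 17, 10, 23 and 17 of these cells in the same order. Mcl1 was found in 44, 22, 20, 27 and 26. Whether the pair occurs together beyond these single counts was not tested.

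Other genes of cell death were counted in 8 lists of 71 genes in all. At day 1, where 23.2% of all measured genes were at least 2-fold higher, the lists with the most such genes were those around the mitochondrion, the death receptors and p53. A gene near 0 in control cells could be measured only through day 1 cells, as Traf2, Fadd, Ccng1 and Perp were. In control cells Cflar, Ripk1 and Trp53 also missed the share of cells set for a measured gene. Of the higher death receptor and p53 genes, only Cdkn1a reached that share in control cells. The counts and medians of these lists are therefore descriptions and do not stand for the whole lists. Of 9 genes of mitochondrial release 7 were measured, and 5 were higher and none lower (median 1.18 against 0.17 for all genes): Cycs, the cytochrome c that binds Apaf-1, at 260.7 CPM, then Diablo (87.6 against 29.9 CPM), Htra2, Vdac1 and Vdac3. Of 10 death receptor genes 5 were measured, and 4 were higher (median 2.18): Cflar, an inhibitor of caspase-8, at 21.8 against 4.05 CPM, Ripk1, and Traf2 and Fadd, which had 3 and 2 reads in control cells. Of 10 p53 pathway genes 8 were measured, and 4 were higher (median 1.11): Trp53 at 59.1 against 17.2 CPM, Cdkn1a at 209 against 79.9, Ccng1 at 40.1 against 0.968, and Perp at 160.0 CPM in 16 day 1 cells against 0 control reads, at least 3582-fold above the control floor. Apaf1 and Bax are known p53 targets. At day 1 Apaf1 was at -3.94, while Bax was at 0.90, short of 2-fold, and at 0.07 against GFP cells. The part of p53 in either was not tested. Hrk, a neuronal BH3-only gene, was 5.03-fold lower, and no inhibitor of apoptosis gene of 3 measured and no other caspase or nuclease gene of 2 measured passed 2-fold.

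At day 14 the list of other Bcl2 homologues had 5 of 10 genes measured, 4 of them higher and none lower (median 3.07 against 0.14 for all genes), where 23.8% of all measured genes were higher. Bcl2a1a and Bcl2a1d were near 0 in control cells. Both, like Bcl2a1b and Bok, missed the 20% share in control cells and were measured only through day 14 cells. The count of higher genes and the median thus do not stand for the whole list. Bok, a Bax-like effector, stood at 256 CPM against 29.7 in control cells, with a read in 19 of 29 cells against 6 of 31, and it was at 400.5 CPM in the 9 cells that were not microglia-rich and 193 CPM in the 20 that were. The A1 genes Bcl2a1a, Bcl2a1b and Bcl2a1d are near-identical copies whose reads can be split between them, and their levels are uncertain. All of their day 14 reads, like those of Casp4, Zbp1, Nlrp3, Pycard and Birc3, lay in the 20 microglia-rich cells. The part of microglial RNA in those genes was not tested. Of 4 measured genes of necroptosis and pyroptosis 3 were higher (Zbp1, Nlrp3, Pycard) and 1 was lower (Dfna5, the symbol used for Gsdme). The 3 higher ones also missed the 20% share in control cells and were measured only through day 14 cells. Xiap, which inhibits caspase-9, was at 3.31 CPM against 17.8, or 5.39-fold lower, and 94.5% of its day 14 reads came from 1 cell.

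With Id2 against GFP 0 to 2 measured genes of a list were higher and 0 or 1 lower, where 10.2% and 12.6% of all measured genes were. Cdkn1a, the p53 target that encodes p21, stood at 75.6 CPM in 18 of 71 Id2 cells and 3.59 CPM in 4 of 59 GFP cells. Control cells of mice without an injection had 79.9 CPM of Cdkn1a, close to the Id2 cells, and the GFP cells were the low group. Among cells that were not microglia-rich, it stood at 40.3 CPM in control, 69.4 in Id2 and 3.64 in GFP cells. The part of microglial RNA in these levels was not tested. Bcl2l13, a Bcl2 homologue of the outer mitochondrial membrane, was at 11.01 CPM in 10 Id2 cells and 105.5 CPM in 19 GFP cells, 9.59-fold lower. Its overlapping neighbour Bid was not measured in this comparison. Aifm1, the apoptosis-inducing factor, was lower at 52.7 against 114.6 CPM, though 1 cell held 52.8% of the GFP reads and without it the GFP level was 55.8 CPM.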

How the data were processed

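Patch-seq libraries were prepared from cytosol of single cells with the Nextera XT kit, per the labels' protocols. The submitters' processing notes name Trimmomatic, STAR, featureCounts and GRCm38, while strand setting, annotation and quality rule are not stated there. Deposited were counts, whole numbers for 22800 genes in 291 cells, and a scaled signal for 252 cells, equal to the counts times 1 factor per cell (0.187 to 287). The names of the 2 tables point the other way, and units were settled on the values. Of 304 labelled samples, 13 had no column and were not analysed here. The 39 failed cells served only in an alternative.

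The members, gene lists, thresholds and named genes were chosen with earlier results of these data known. Named genes are all 9 members, up to 4 measured genes per list with the largest ratio in size, the genes that make up a count given in the text, and the 5 nearest profiles to the member of widest range. Omitted were 2 day 1 cells labelled contra and the 2 passing low_DG libraries, which match control cells J86 and J90 (correlation of log2 CPM 0.997 and 0.998, next pair 0.755).

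Counts were summed by group and scaled to CPM (Python 3.11.15, pandas 2.3.3, scipy 1.17.1), with a pseudocount of 1 CPM for log2 ratios. Folds in the text use CPM without it. Cells were thinned with a fixed random seed, which left out 2 shallow control cells. Gene models and exon lengths are GENCODE M21 on GRCm38, used for positions, overlaps and CPM per kb. Of 9 members, 9 matched the RefSeq promoter table. TMM factors came from edgeR 4.0.16. The ratio and call steps were checked on simulated counts. No molecular identifier is named, so reads cannot be taken as independent molecules. Alternatives changed pseudocount, filter, scaling, thinning, cells and controls.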

Additional observations from a re-analysis of the deposited data

Results flagged for a closer look

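The 2 cells taken at day 1 under the label contra entered no comparison. In them 3 members stood above the level of the control cells. Mcl1 was at 443.5 CPM (429.3 to 458) with a read in both cells, against 370.5 CPM in control cells. Casp9 was at 18.9 CPM from 157 reads of 1 cell, against 1 read in 31 control cells. Bcl2 was at 15.98 CPM from 133 reads of 1 cell, against 0 reads in control cells. Apaf1, Bak1 and Bid had 0 reads in both. With 2 cells these values describe those cells alone.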

How the results depend on the processing

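The number of members at least 2-fold apart stayed within 1.5 times its reported value in 48 of 65 alternatives. An equal count did not always mean the same genes. At day 14 against control, Bcl2l1 replaced Apaf1 as the lower gene with the mean of CPM over cells and with thinned cells. For Id2 against GFP it replaced Apaf1 in the higher-numbered titles. For day 1 against day 14, Bcl2 gave way to Bid with thinned cells, and to Bcl2l11 without the cell with the most reads. For day 1 against control the count was 1, and it was 4 with no filter on low values, 3 without microglia-rich cells, 3 without the cell with the most reads of the gene, and 2 with failed cells added, without the deepest 10% of cells or with control cells of other titles. For day 14 against control the count was 2, and it was 4 with no filter, 4 with GFP cells as the control, and 1 with failed cells added or with control cells of other titles. For day 1 against day 14 the count was 2, and it was 4 with no filter, 4 without microglia-rich cells and 1 without the deepest 10% of cells. For Id2 against GFP the count was 1, and it was 3 with no filter and 0 with failed cells added or without the deepest 10% of cells. For GFP against control the count was 2, and it was 5 with no filter. Without the filter more genes are counted by construction. The cause of the other shifts was not tested. Each of the 8 differences that passed 2-fold kept its sign in all of its alternatives. Smaller ones did not always: Bcl2l1 for Id2 against GFP kept its sign in 7 of 13, and Mcl1 at day 1 and day 14 changed sign against GFP cells. The deposited scaled signal moved the median of all genes from 0.14 to -0.05 at day 14, from 0.17 to 0.06 at day 1 and from -0.10 to 0.03 for Id2 against GFP, and TMM scaling moved it from 0.13 to 0.02 for GFP against control. No paired analysis was possible because no result comes from a test and no label names an animal. Control cells are the shallowest and hold the fewest reads, so members with few reads there, Bcl2, Casp9, Bcl2l11 and Bak1, have the least certain ratios.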
